A study of Mus musculus with 6 samples.

Results

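The 10 genes described here encode the enzymes that carry glucose 6-phosphate down to pyruvate, with the isoenzymes of the aldolase and enolase steps: Gpi1, Aldoa, Aldoc, Tpi1, Gapdh, Pgk1, Pgam1, Eno1, Eno2 and Pkm. They were chosen by gene symbol, all 10 were among the 26214 genes listed in the count files, and all 10 passed the filter on low counts that left 14709 genes for testing. The set is named for lower glycolysis, although glucose 6-phosphate isomerase and aldolase act before the pathway yields energy. The phosphofructokinases and hexokinases, which control the upper part, are not members.

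RNA was sequenced from mouse brown adipocytes, the heat-producing fat cells, grown from an immortalized line of primary brown preadipocytes. The cells were induced to differentiate for 3 days, kept in medium containing insulin (20 nM) and the thyroid hormone T3 (1 nM), and on day 7 received 100 nM rotenone or DMSO, its solvent, for 16 h. Rotenone blocks complex I, the NADH dehydrogenase of the respiratory chain. Both groups share the line, the differentiation and the insulin, and no source used here gives the glucose content of the medium. Each group has 3 deposited libraries, called independent replicates by the submitters, with nothing to show whether these were separate cultures. The 3 rotenone files hold 0 genes with different counts and were counted as 1 sample, whereas each pair of DMSO files differed at 16837 to 16944 genes. Every comparison below is therefore 3 DMSO libraries against 1 rotenone library. Its p-values rest on the spread of the DMSO libraries alone, which may be technical, and assume that a rotenone library varies as they do.

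Glycolysis splits glucose into pyruvate in the cytosol and makes ATP without oxygen. Gapdh makes NADH, Pgk1 and Pkm make the ATP, and the remaining enzymes rearrange the carbon between these steps. Cells whose respiration is blocked usually depend on this pathway for ATP, and most of its genes are textbook targets of the hypoxia-inducible factor HIF-1, which binds a short core motif, the hypoxia response element. Aldolase C and enolase 2 are known mainly as brain isoenzymes beside the widespread aldolase A and enolase 1.

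The DMSO libraries held 26085061 to 29194179 counts and the rotenone library 21611589, so that a count of 0 allowed up to 0.103 to 0.139 CPM (the counts-per-million unit used throughout) before scaling, for counting error only. The precursor of ribosomal RNA, Rn45s, took 2.51% to 3.17% of DMSO counts and 3.91% of rotenone counts. Fat cell markers were present in every library: the 8 adipocyte markers summed to 10620 to 11694 CPM with DMSO and 10726 CPM with rotenone, and of these 1 was higher and 6 lower (0 and 2 with an assumed coefficient of variation of 20%). For this list and the next, the shares of all genes tested were 27.6% higher and 28.5% lower (9.57% and 14.0% with that coefficient of variation). The 10 preadipocyte and fibroblast markers summed to 1437 to 1613 CPM with DMSO and 4374 CPM with rotenone, with 7 higher and 1 lower. Most of this rise was in matrix and contractile genes. From the DMSO mean to rotenone, Col1a1 went from 883 to 2121 CPM, Acta2 from 155 to 852, Tagln from 122 to 654 and Col3a1 from 229 to 477. Thy1, Dlk1 and Pdgfrb were also higher. Pdgfra fell by 1.11 ± 0.16, Cd34 did not pass, and Ly6a passed only in some alternative settings. The part of these markers in the results below was not tested. In bulk RNA, fewer cells of a type and less RNA per cell cannot be told apart. Of other cell types that use glycolytic isoenzymes, the neuronal markers Snap25, Rbfox3 and Stmn2, the astrocyte markers Gfap and Aqp4 and the muscle markers Myh4, Myh1 and Myod1 had 0 counts in every library. Summed over their lists, neuronal markers stood at 39.1 to 43.2 CPM with DMSO and 37.9 CPM with rotenone. Most of this was Map2, at 35.3, 34 and 32 CPM with DMSO and 29 CPM with rotenone. Astrocyte markers stood at 3.29 to 5.71 CPM with DMSO and 4.29 CPM with rotenone, from S100b and Slc1a2, which had counts in every library. Muscle markers stood at 0.225 to 0.338 and 6.65 CPM. The muscle value with rotenone was Acta1, skeletal muscle actin, alone, which rose by 4.87 ± 0.45 on the log2 scale.

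Promoter sequence is shown first. It was searched for the core of the hypoxia response element, and the part of that motif in the changes below was not tested. The windows are the 250 bases before each annotated start, taken from RefSeq on GRCm38.p6 and read 5′ to 3′ on the gene's strand. Capitals mark ACGTG or GCGTG on either strand, so that CACGT and CACGC are the same motifs read on the other strand. All 10 genes matched the table, with 16 windows in all. The 4 shown are 3 genes with matches that fell (Pgk1 at chrX:106186850-106187099, plus strand; Pgam1 at chr19:41911621-41911870, plus strand; Gapdh at chr6:125165774-125166023, minus strand) and 1 without a match that fell as well (Gpi1 at chr7:34230337-34230586, minus strand; GENCODE places an exon of the noncoding gene Gm12762 in it). The window of Eno2, the gene that rose, runs into the last exon of the neighbouring gene Lrrc23 and is not shown.
Pgk1: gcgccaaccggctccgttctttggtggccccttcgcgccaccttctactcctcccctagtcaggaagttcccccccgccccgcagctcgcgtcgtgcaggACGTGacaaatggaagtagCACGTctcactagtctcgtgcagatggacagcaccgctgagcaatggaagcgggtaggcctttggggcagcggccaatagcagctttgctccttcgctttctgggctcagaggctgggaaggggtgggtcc
Pgam1: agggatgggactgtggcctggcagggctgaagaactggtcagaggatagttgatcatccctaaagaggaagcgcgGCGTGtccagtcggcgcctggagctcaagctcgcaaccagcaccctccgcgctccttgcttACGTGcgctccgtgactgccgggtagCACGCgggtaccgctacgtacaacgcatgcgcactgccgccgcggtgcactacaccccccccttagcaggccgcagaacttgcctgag
Gapdh: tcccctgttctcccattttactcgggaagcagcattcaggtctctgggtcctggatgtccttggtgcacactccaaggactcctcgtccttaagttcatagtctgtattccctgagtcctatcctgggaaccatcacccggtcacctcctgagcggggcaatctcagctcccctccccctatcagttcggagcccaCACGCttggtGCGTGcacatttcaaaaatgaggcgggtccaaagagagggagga
Gpi1: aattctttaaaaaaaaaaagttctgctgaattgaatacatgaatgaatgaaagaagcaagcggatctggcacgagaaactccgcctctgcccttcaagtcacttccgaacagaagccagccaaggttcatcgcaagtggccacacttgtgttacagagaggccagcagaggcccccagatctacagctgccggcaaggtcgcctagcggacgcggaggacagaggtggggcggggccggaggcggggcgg

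In the Pgk1 window, 2 copies of ACGTG were found, 1 on each strand and the nearer 126 bases before the start. The Pgam1 window held 3 matches, of which 1 was ACGTG. The Gapdh window held a pair of GCGTG motifs on opposite strands, the nearer 39 bases before the start. No match was found in the windows of Gpi1, Tpi1 and Eno2. Over the set, 11 of 16 windows held either motif, against 43.9% of the 23305 windows of all listed genes. By gene, 7 of the 10 had a window with either motif, against 46.6% of 19526 genes. The members had more windows per gene (16 for 10) than all genes (23305 for 19526), so the shares by gene are not like for like. At least 2 matches were found in 5 of 16 windows, against 20.0% of all windows. ACGTG alone was in 5 of 16 windows and in 17.9% of all windows; GCGTG alone was in 7 of 16 and in 33.6%. The E-box CACGTG, which contains ACGTG, was in 0 of the 16 windows and in 6.7% of all. Member windows had a GC content of 50.4% to 71.2%, with a median of 55.2% over all windows. Some windows of 1 gene overlap, so that the same matches of Aldoa and of Eno1 were counted in 2 windows. A match describes letters, not binding. By GENCODE, windows of Aldoa, Aldoc, Eno1, Pkm and Tpi1 also held exon of the same gene, up to 250 bases for Eno1.

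Transcripts of 9 of the 10 genes were lower with rotenone and 1, Eno2, was higher. By edgeR's quasi-likelihood test with Benjamini-Hochberg adjustment over all 14709 genes, all 10 passed an adjusted p of 0.05; of all genes tested, 28.5% were called lower and 27.6% higher. Among the members, 7 were lower by at least 2-fold, against 11.3% of all genes. In 9 members the rotenone library lay below all 3 DMSO libraries, as it did for 44.7% of all genes. The median log2 fold change of the members was -1.58, beside -0.04 for all genes. When libraries were scaled by their totals alone, calls split into 3245 higher and 5153 lower, against 4054 and 4197 with TMM scaling (the trimmed mean of M values, used here), and the median of all genes shifted by -0.12. No member changed direction under that scaling. When each library was taken to vary with a coefficient of variation of 20%, in place of the 6.9% estimated, 8 members were lower and 1 higher, beside 14.0% and 9.57% of all genes.

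**Figure D1:**
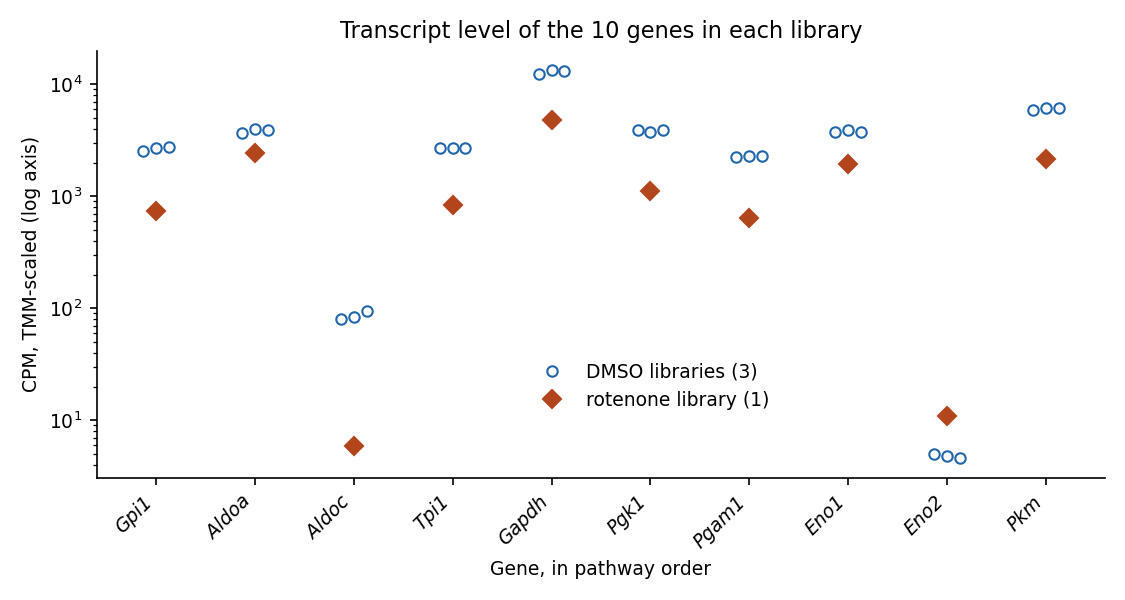
CPM on TMM-scaled library sizes (log axis) of each gene in pathway order; open circles are the 3 DMSO libraries and diamonds the single rotenone library. The diamond lies below all circles for 9 genes and above them for Eno2, which stood at 4.57 to 5.00 CPM with DMSO and 10.9 CPM with rotenone.

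Gpi1 and the aldolases open the series of reactions. Gpi1, glucose 6-phosphate isomerase, stood at 2526, 2699 and 2768 CPM in DMSO replicates 1, 2 and 3 and at 746 CPM with rotenone, which was 28.0% of the DMSO mean. It fell by 1.84 ± 0.07 (log2 fold change ± SE; edgeR adjusted p = 2.9e-13). Aldoa encodes aldolase A, which cuts fructose 1,6-bisphosphate into 2 triose phosphates. Its levels were 3641, 3997 and 3917 CPM with DMSO and 2413 CPM with rotenone. The rotenone library was 33.7% below the lowest DMSO library. Aldoa fell by 0.67 ± 0.07 on the log2 scale (edgeR adjusted p = 1.3e-07), the smallest fall among the 9 genes, and was the only member whose call was lost, against a 1.5-fold change (adjusted p = 0.13) and with the 20% coefficient of variation (adjusted p = 0.15).

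Aldoc, the isoenzyme known from brain, had the largest fall of the set. It stood at 80.9, 84.1 and 94.6 CPM with DMSO and 5.91 CPM with rotenone, from 2396, 2431 and 2528 counts to 120. Its log2 fold change was -3.87 ± 0.14 (edgeR adjusted p = 5.7e-14), a level 14.6-fold lower than the DMSO mean, and only 2.34% of all tested genes had a lower value. Tpi1, triose phosphate isomerase, which interconverts the products of aldolase, had the tightest DMSO levels of the set (2676, 2716 and 2677 CPM; coefficient of variation 0.86%). Rotenone took it to 840 CPM, a fall of 1.68 ± 0.07 (edgeR adjusted p = 2.9e-13).

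The 2 reactions that follow make NADH and the first ATP. Gapdh, glyceraldehyde 3-phosphate dehydrogenase, stood at 12346, 13364 and 13050 CPM with DMSO and 4827 CPM with rotenone, 37.4% of the DMSO mean. It fell by 1.42 ± 0.07 (edgeR adjusted p = 8e-12). Pgk1, phosphoglycerate kinase, an X-linked gene, stood at 3885, 3776 and 3877 CPM with DMSO and 1118 CPM with rotenone. It fell by 1.78 ± 0.07 (edgeR adjusted p = 1.7e-13), and the rotenone value was 70.4% below the lowest DMSO library. Both genes are common reference genes for quantitative PCR. Of 15 such reference genes listed and tested, 9 were higher with rotenone and 2 lower, and Gapdh and Pgk1 were the 2 lower ones. With library size scaling 8 were higher and 3 lower, and with the 20% coefficient of variation 5 and 2. The shares of all genes tested were 27.6% higher and 28.5% lower, and 9.57% and 14.0% with that coefficient of variation.

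The last 3 reactions lead to pyruvate. Pgam1, phosphoglycerate mutase, was at 2232, 2295 and 2300 CPM with DMSO and 637 CPM with rotenone, a fall of 1.84 ± 0.07 (edgeR adjusted p = 1.1e-13). Pkm, the pyruvate kinase of most tissues, stood at 5898, 6135 and 6143 CPM with DMSO and 2157 CPM with rotenone. It fell by 1.49 ± 0.07 (edgeR adjusted p = 1.9e-12). The counts are per gene, so the M1 and M2 splice forms of pyruvate kinase cannot be told apart here. Pklr, the pyruvate kinase gene of liver and red cells, had 0 counts in every library.

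Enolase was the step at which isoenzymes moved in opposite directions. Eno1, the widespread enolase, stood at 3712, 3876 and 3729 CPM with DMSO and 1944 CPM with rotenone, 51.5% of the DMSO mean, and fell by 0.96 ± 0.07 (edgeR adjusted p = 6.4e-10). Eno2, the neuronal enolase, had 148, 138 and 122 counts with DMSO and 221 counts with rotenone, or 5.00, 4.78 and 4.57 CPM against 10.9 CPM. It rose by 1.19 ± 0.20 (edgeR adjusted p = 6.3e-05), to 2.28 times the DMSO mean. Eno2 stayed higher in all 18 other settings (including a stricter threshold on the main fit), with log2 fold changes of 1.07 to 1.23, but all of them use the same rotenone library. The rise was therefore in a transcript at a low level: with rotenone there were still 179 Eno1 counts for each Eno2 count, down from 743, 812 and 817 with DMSO. Of 4 neuronal marker genes tested, 0 were called higher, against 27.6% of all genes tested. Tubb3, a neuronal tubulin gene, was at 4.80, 2.56 and 5.54 CPM with DMSO and 7.24 CPM with rotenone, with a log2 fold change of 0.75 ± 0.33 (edgeR adjusted p = 0.067); it was called higher with no filter, without DMSO replicate 1, without DMSO replicate 3 and with limma-voom. Syp, a synaptic vesicle protein gene, was called lower, a call lost without DMSO replicate 3, with DESeq2, with limma-voom and against a 1.5-fold change.

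**Figure D2:**
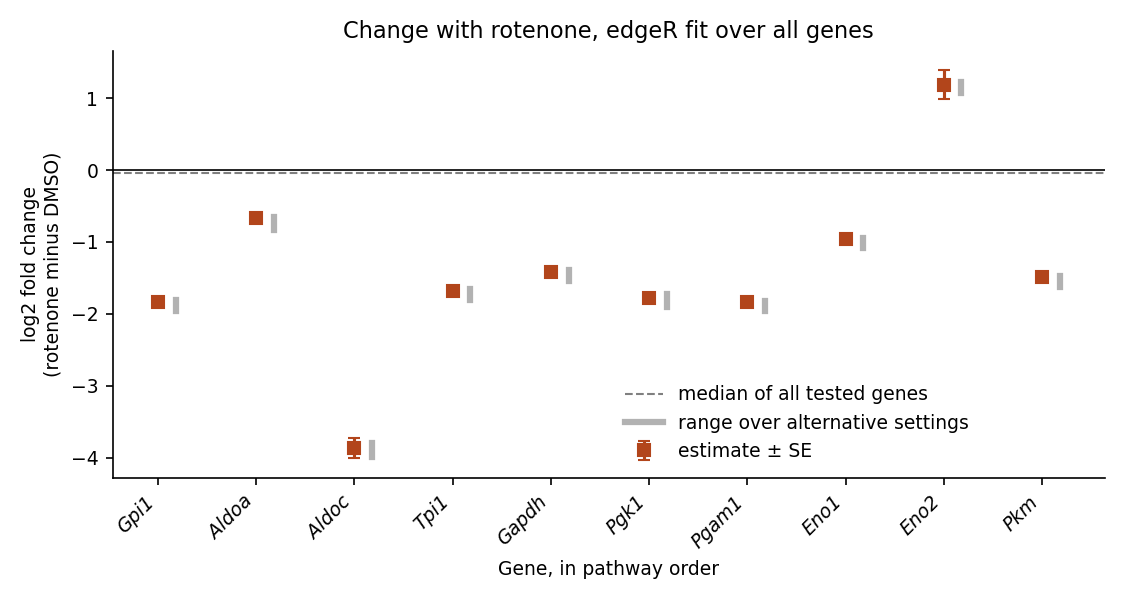
Log2 fold change (rotenone minus DMSO) of each gene in pathway order from the edgeR fit over all genes; squares are estimates with bars of 1 SE, grey lines the range over the alternative fits and the dashed line the median of all tested genes. Values run from -3.87 for Aldoc to 1.19 for Eno2, with Aldoa and Eno1 nearest to the median of all genes.

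The changes differed in size, though differences between members were not tested. A group of 6 genes, Gpi1, Tpi1, Gapdh, Pgk1, Pgam1 and Pkm, lay between -1.84 and -1.42, each with a standard error of 0.07, while Aldoa and Eno1 fell less and Aldoc fell more. Between the DMSO libraries themselves, coefficients of variation were 0.86% to 8.29%. Summed over the 10 genes, transcripts came to 37002, 38947 and 38561 CPM with DMSO and 14700 CPM with rotenone, 38.5% of the DMSO mean. As a share of raw counts this was 3.75%, 3.99% and 3.95% with DMSO and 1.38% with rotenone.

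Within that sum the balance shifted toward Aldoa and Eno1. Aldoa made up 10.1% ± 0.219 (SD, n = 3) with DMSO and 16.4% with rotenone, and Eno1 9.89% ± 0.189 (SD, n = 3) and 13.2%. Gpi1 went from 6.98% ± 0.18 to 5.07%, Pgam1 from 5.96% ± 0.0698 to 4.33% and Pgk1 from 10.1% ± 0.404 to 7.61%. Tpi1 went from 7.05% ± 0.158 to 5.72%, Pkm from 15.9% ± 0.105 to 14.7% and Gapdh from 33.8% ± 0.473 to 32.8%. For Aldoa, Eno1 and Eno2 the rotenone value lay above all 3 DMSO values, and for the other 7 genes below them. Relative to the lowest DMSO value of the same gene, the gap was smallest for Gapdh, at 32.8% against 33.4%. These shares were not tested; with 3 libraries against 1 the smallest p that an exact permutation test can give is 0.25.

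**Figure D3:**
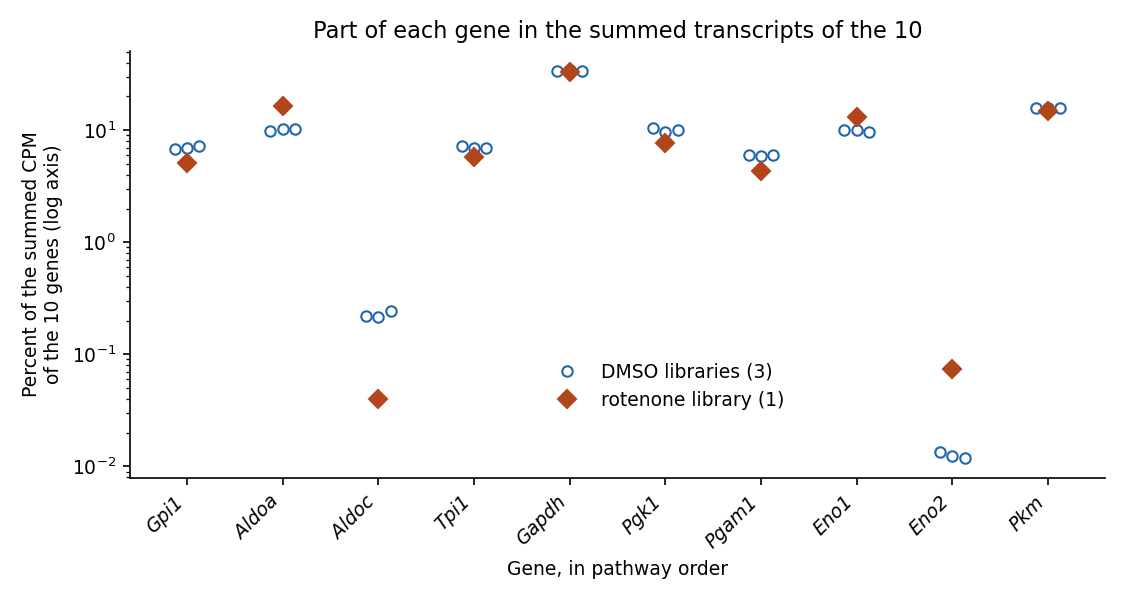
Each gene's percent of the summed CPM of the 10 genes in each library (log axis), in pathway order; open circles are the 3 DMSO libraries and diamonds the rotenone library. Aldoa, Eno1 and Eno2 take a larger part with rotenone (16.4% for Aldoa) and the other 7 genes a smaller one.

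Levels can be compared between genes only per length, here as CPM per kb of all annotated exons. With DMSO, Gapdh was highest at 3126 ± 126 (SD, n = 3), followed by Pgk1 at 1714 ± 27.2, Aldoa at 1323 ± 64.1, Pkm at 1211 ± 27.9, Pgam1 at 1148 ± 19.1, Tpi1 at 977 ± 8.4, Eno1 at 701 ± 16.8 and Gpi1 at 413 ± 19.3. Aldoc at 26.5 ± 2.2 and Eno2 at 1.02 ± 0.0457 came last. The DMSO ranges of neighbours in this order did not overlap, though Aldoa and Pkm were separated by only 1251 against 1228 CPM per kb at their nearest libraries. With rotenone the first was still Gapdh (1168 CPM per kb), but Aldoa (829) came before Pgk1 (498), Eno1 (361) before Pgam1 (322) and Tpi1 (305), and Eno2 (2.31) before Aldoc (1.81). The order depended on the length used: with the longest coding transcript, Pkm (2491) and Aldoa (2487) overlapped in the DMSO libraries and both came before Pgk1 (2107). Gapdh was first in that order too, with both treatments, but with the longest transcript of any kind Aldoa (1558) came before Gapdh (1468) in the rotenone library.

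Isoenzyme shares of a step were taken from counts per kb of exon. Aldoa made up 98.1%, 98.2% and 97.9% of aldolase transcripts with DMSO and 99.8% with rotenone, while Aldoc went from 1.94%, 1.84% and 2.11% to 0.218%. Eno2 went the other way, from 0.152%, 0.140% and 0.139% of enolase transcripts to 0.629%. Eno3, the muscle enolase, took 0.938%, 0.785% and 0.879% with DMSO and 1.19% with rotenone. Eno1 therefore still made up 98.2% of enolase transcripts with rotenone. For each of Aldoa, Aldoc, Eno1, Eno2 and Eno3 the rotenone value lay outside its DMSO range. The shares depended on the length used: with the longest transcript, Aldoc went from a DMSO mean of 1.23% (1.97% with all exons) to 0.136%, and Eno2 from 0.0915% (0.143% with all exons) to 0.402%.

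**Figure D4:**
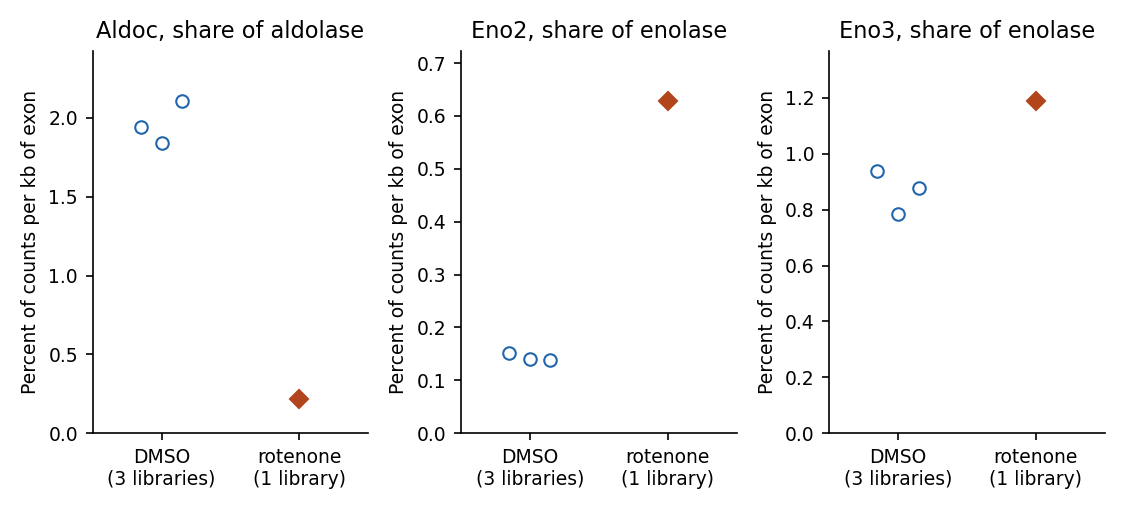
Percent of the transcripts of a step (counts per kb of exon) taken by Aldoc among aldolases and by Eno2 and Eno3 among enolases; open circles are the 3 DMSO libraries, diamonds the rotenone library, and every axis starts at 0. Aldoc drops from its DMSO range of 1.84% to 2.11% to 0.218%, while Eno2 rises to 0.629%.

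Other isoenzymes and copies of the same steps were mostly at low counts, except Eno1b, described with the near-identical copies. Of 11 that are listed, Pgk2, Pklr, Aldoart1 and Aldoart2 had 0 counts in every library, and of 5 tested, 4 were lower and 0 higher (2 and 0 with the 20% coefficient of variation). Among all genes tested, 28.5% were lower and 27.6% higher (14.0% and 9.57% with that coefficient of variation). Gapdhs, the sperm form of Gapdh, was at 7.46, 6.96 and 8.09 CPM with DMSO and 2.22 CPM with rotenone, a fall of 1.76 ± 0.27 (edgeR adjusted p = 1.5e-05). Pgam2, the muscle mutase, fell by 1.73 ± 0.54 (edgeR adjusted p = 0.01) from 2.14 CPM, a call lost with limma-voom and against a 1.5-fold change. Eno3 had a log2 fold change of -0.49 ± 0.19 (edgeR adjusted p = 0.034), a call lost without DMSO replicate 1, with DESeq2, with limma-voom, against a 1.5-fold change and with the 20% coefficient of variation. Bpgm, which makes bisphosphoglycerate, gave -0.22 ± 0.18 and did not pass (edgeR adjusted p = 0.31). Eno4 had a single count, in DMSO replicate 2.

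Reads of near-identical copies may have been divided between genes, since no source used here says how multi-mapped reads were handled. The Gapdh transcript matched 81 other annotated genes over at least 100 bases at 95% identity or more, of which 4 are listed in the files. The processed pseudogene Gm12070 matched it over 1002 bases at 99.9% identity and had 1270, 1346 and 1311 CPM with DMSO and 461 CPM with rotenone, a log2 fold change of -1.51 ± 0.07 beside -1.42 for Gapdh. Eno1b, which matched Eno1 over 1736 bases at 99.5% identity, went from 193, 186 and 188 CPM to 118 CPM, a fall of 0.68 ± 0.07 that was lost against a 1.5-fold change and with the 20% coefficient of variation. Adding such copies to their genes gave -1.43 for Gapdh and -0.94 for Eno1. No other gene matched Aldoa, Aldoc or Eno2 at this identity. Overlapping exons on the opposite strand were small: 34 bases of Spsb2 on Tpi1 and 68 bases of Iffo1 on Gapdh, among genes listed in the files.

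A group of 3 members are neighbours. Eno2, Tpi1 and Gapdh lie within 406.4 kb on chromosome 6 (124760053 to 125166467, GRCm38), all on the minus strand, with Eno2 at 124760053 to 124769673, Tpi1 at 124810586 to 124814296 and Gapdh at 125161715 to 125166467. Eno2 rose while Tpi1, whose start is 44.6 kb away, fell. Of the 23 other listed genes in this interval 19 were tested, 8 were higher, 5 lower and 6 did not pass, with a median log2 fold change of 0.31; with library size scaling 6 were higher and 5 lower, and with the 20% coefficient of variation 1 and 2. Of all genes tested, 27.6% were higher and 28.5% lower. Acrbp, an acrosin-binding protein gene, fell by 2.66 ± 0.37, the orphan receptor gene Gpr162 by 0.98 ± 0.23 (lost against a 1.5-fold change), and Cdca3, a cell division gene, rose by 0.90 ± 0.09.

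**Figure D5:**
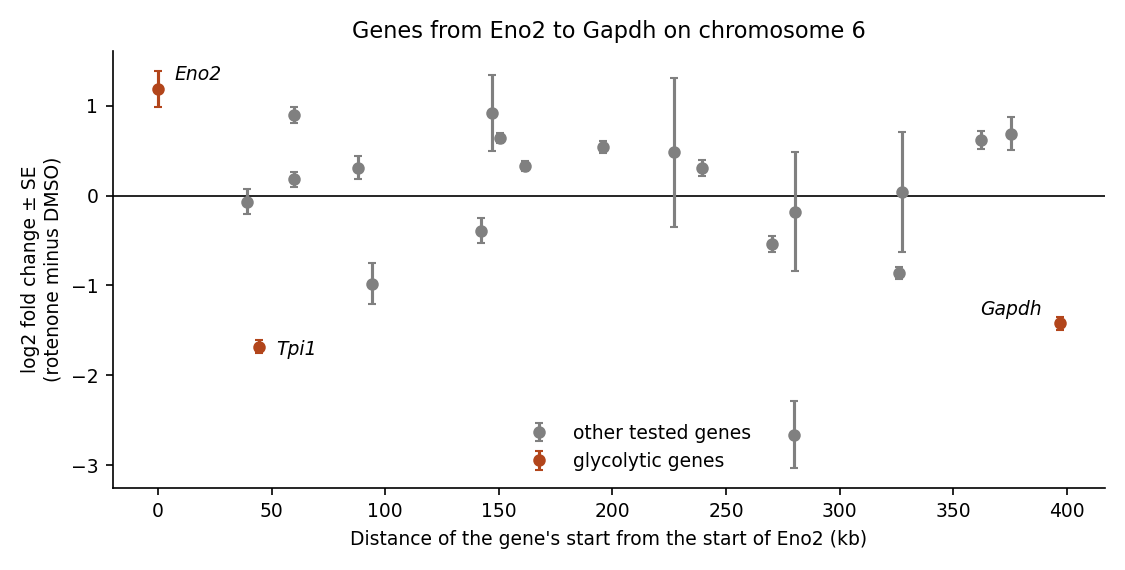
Log2 fold change ± SE (rotenone minus DMSO) of tested genes from Eno2 to Gapdh on chromosome 6, against the distance of each gene's start from that of Eno2 in kb; coloured points are Eno2, Tpi1 and Gapdh. Of the 19 other genes, 8 were called higher and 5 lower.

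The remaining members lie apart: Gpi1 at 34201330 to 34230336 and Aldoa at 126795234 to 126800751 on chromosome 7, Pkm at 59656368 to 59679375 on chromosome 9, Aldoc at 78322968 to 78327781 on chromosome 11, Eno1 at 150236721 to 150248879 on chromosome 4, Pgam1 at 41911923 to 41918660 on chromosome 19 and Pgk1 at 106187100 to 106203699 on chromosome X (GENCODE M21, GRCm38). The 7 genes lower by at least 2-fold lie on 6 chromosomes.

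The steps before the set were mixed. For this list and those that follow, the shares of all genes tested were 27.6% higher and 28.5% lower. Of 16 tested genes of glucose uptake and upper glycolysis, 4 were higher and 9 lower, with a median of -0.99. Pfkfb1, which sets the level of the phosphofructokinase activator fructose 2,6-bisphosphate, fell by 2.06 ± 0.14, the phosphofructokinase gene Pfkl by 1.94 ± 0.07 and the glucose transporter gene Slc2a1 by 1.74 ± 0.10. Against them, the ADP-dependent glucokinase gene Adpgk rose by 0.99 ± 0.11 and Pfkfb3, a further bisphosphatase-kinase, by 0.90 ± 0.07. With library size scaling 2 were higher and 10 lower, and with the 20% coefficient of variation 2 and 8.

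Downstream genes were split. Of 21 tested genes of pyruvate and lactate handling, 8 were higher and 7 lower, with a median of 0.01 that turned to -0.11 with library size scaling (6 higher, 10 lower). With the 20% coefficient of variation 1 was higher and 3 lower. Slc16a3, a lactate exporter, fell by 3.75 ± 0.13, Pdk1, the kinase that restrains pyruvate dehydrogenase, by 2.98 ± 0.08, and Ldha, lactate dehydrogenase A, by 2.17 ± 0.07. The 8 genes called higher changed by less than these 3, with log2 fold changes of 0.17 to 0.88. The other genes called lower had log2 fold changes of -0.78 to -0.50. Of 18 genes of the branches that leave the pathway and of the NADH shuttles, 12 were higher and 3 lower, with a median of 0.42 (3 and 0 with the 20% coefficient of variation). The enzymes that draw 3-phosphoglycerate into serine rose: Psat1 by 1.27 ± 0.06, Phgdh by 1.23 ± 0.06 and Psph by 1.09 ± 0.07. Phgdh thus moved opposite to Pgam1, which uses the same substrate, from 255, 268 and 263 CPM to 615 CPM. Slc25a13, an aspartate-glutamate carrier, fell by 1.02 ± 0.28 and Gpd1l by 0.49 ± 0.11, both lost against a 1.5-fold change and with the 20% coefficient of variation.

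Regulators tied to these genes were measured in the same libraries. Hif1a, the oxygen-regulated subunit of HIF-1, stood at 116, 130 and 136 CPM with DMSO and 155 CPM with rotenone and rose by 0.29 ± 0.08 (edgeR adjusted p = 0.006), a call lost with library size scaling, against a 1.5-fold change and with the 20% coefficient of variation. Epas1, the subunit of HIF-2, gave 0.12 ± 0.08 and Arnt, the partner subunit, -0.11 ± 0.08; neither passed, though Arnt did with library size scaling and Epas1 with the length and GC offset. Transcript levels do not show HIF protein, which is controlled mainly by its breakdown. Of 10 genes of HIF subunits and oxygen sensing, 1 was higher and 6 lower (0 and 7 with library size scaling): the prolyl hydroxylase genes Egln3 and Egln1 fell by 4.91 ± 0.09 and 2.96 ± 0.08, and Hif3a had 0 counts with rotenone, at least 7.28-fold lower than its DMSO mean of 1.08 CPM (floor of 3 counts in that library). With the 20% coefficient of variation, 0 of these 10 were higher and 5 lower. Of 14 other HIF target genes, 13 were lower and 0 higher, with a median of -1.30. The largest changes were those of Ankrd37, Ndufa4l2 and Ddit4, at -6.26 ± 0.25, -4.24 ± 0.11 and -4.21 ± 0.09. With the 20% coefficient of variation 9 of the 14 were lower and 0 higher. Of all genes tested, 28.5% were called lower, and 14.0% with that coefficient of variation.

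Of 12 transcription and splicing factors tied to glycolytic genes, 7 were higher and 1 lower, with a median of 0.22 (4 and 2 with library size scaling, 2 and 0 with the 20% coefficient of variation). Myc, a transcription factor known to raise glycolytic genes, was at 27.7, 33.2 and 37.7 CPM with DMSO and 148 CPM with rotenone. It rose by 2.17 ± 0.12, and its part in the changes of the members was not tested. Ptbp1, a splicing factor that favours the M2 form of pyruvate kinase, rose by 0.81 ± 0.07, and Max, the partner of Myc, by 0.67 ± 0.08. Srebf1, a regulator of lipid synthesis genes, fell by 0.65 ± 0.07. The calls for Max and Srebf1 were lost against a 1.5-fold change and with the 20% coefficient of variation.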

How the data were processed

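Each deposited file holds whole-number read counts per gene symbol, not normalized, as the authors made them. The submitters' processing notes name TopHat2 and the build mm10; no source used here names the counting program, the annotation or the strand setting. Files of 1 group with identical counts entered once. Counts were scaled by TMM and filtered with filterByExpr in edgeR 4.0.16 (R 4.3.3), and rotenone was compared with DMSO by the robust quasi-likelihood F test over 14709 genes with 2 residual degrees of freedom and Benjamini-Hochberg adjustment, with a threshold of 0.05. The SE is the log2 fold change divided by the square root of F. The test was tried on simulated counts. Lengths, positions and near copies come from GENCODE M21, where 24919 of 26214 symbols matched, and promoters from RefSeq. Alternatives were other scalings, filters, priors and thresholds, leaving out each DMSO library or Rn45s, and scaling without the members, which stayed in the fit. Others were DESeq2 1.42.0, limma-voom (limma 3.58.1), a test against a 1.5-fold change, a 20% coefficient of variation and a length and GC offset in 8 by 8 bins. Adding near copies, and the coding transcript length, were chosen after seeing the data. The members and lists were chosen with earlier results of these data known. From each list, the 3 largest called changes and up to 2 against its main direction are named, beside all members, their isoenzymes, Hif1a, Epas1, Arnt and Rn45s. Further cell type markers are named to show what makes up a summed level or a count of calls. Protein sequences were not analysed here, and some genes that this rule would name are not reported here.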

Additional observations from a re-analysis of the deposited data

How the results depend on the processing

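Each of the 10 log2 fold changes was taken under 18 settings. Of these 180 values none reversed, 178 kept their side of the threshold and 2, both for Aldoa, lost the call. The stricter adjusted p threshold of 0.01 reused the main fit. The 1.5-fold test and the 20% coefficient of variation gave the same log2 fold changes to 2 decimals. These settings bore on the calls and not on the direction. The counts of 9 members lower and 1 higher stayed within 1.5 times of these under every setting. Of all genes, 1203 were higher and 1731 lower when tested against a 1.5-fold change, and 1408 and 2063 with a 20% coefficient of variation. Leaving out a DMSO library gave 3977 to 4173 genes higher and 4076 to 4193 lower. The summed transcripts of the 10 genes were 38.5% of the DMSO mean with rotenone, 37.9% to 38.9% with a DMSO library left out, and 35.4% with library size scaling. The Aldoc share of aldolase with DMSO was 1.97% on average, 1.23% with the longest transcript and 2.20% without division by length; the Eno2 share of enolase with rotenone was 0.629%, 0.402% and 0.555%. No paired analysis was possible because the 3 rotenone files are identical and leave no numbered replicates to pair. The single rotenone library limits every result; rotenone's own spread was not measured.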

Other observations

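A trace of liver transcripts was found mainly in DMSO replicate 1. Alb, the albumin gene, had 107 counts there and 0 in each other library, Serpina1a had 15 there, 2 in DMSO replicate 2 and 0 in the others, and Ttr had 13 there and 0 elsewhere. Apoa1 had 15 counts in DMSO replicate 1, 8 in replicate 2 and 0 in the others. All 10 members kept their calls without DMSO replicate 1.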
